A study of Mus musculus with 10 samples.

Results

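The cytoplasmic ribosomal protein genes encode the proteins of the small (40S) and large (60S) subunits of the ribosome that translates nuclear messenger RNA. Members were taken by symbol: Rpl or Rps followed by digits with an optional final a, l, x or y, together with Rpsa, Rplp0, Rplp1 and Rplp2, without the Rps6k kinases and without names marked as pseudogenes. This gave 80 of the 23420 genes in the count files, of which 30 belong to the 40S subunit, 43 to the 60S subunit and 3 to the P stalk of the 60S subunit, and 4 are paralogues (Rpl3l, Rpl10l, Rpl39l and Rps27l). Rps3a1, Fau and Gnb2l1 (Rack1) encode core ribosomal proteins or a bound scaffold under other names and fall outside the symbol rule.

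Poly(A) RNA was sequenced from 10 libraries of cells sorted from the bone marrow of C57BL/6 mice. The groups were small pre-B cells of Mta2 KO mice (3 libraries), small pre-B cells of control mice (3), pro-B cells of Mta2 KO mice (2) and pro-B cells of control mice (2). Small pre-B cells were B220+ IgM- CD43- and gated for small size, and pro-B cells were B220+ IgM- CD43+. The knockout is labelled Mta2_VavKO, and Vav-driven deletion is known to act throughout the blood lineages and not only in B cells. The labels do not give the allele carried by the controls, the age or the sex. The labels also do not say which animals the libraries came from, so p-values measure the spread between libraries, which may be technical.

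Each ribosome holds a single copy of almost every one of these proteins, and free ribosomal proteins are degraded. Their messages start with a run of pyrimidines at the 5' end (the 5' TOP motif), through which the kinase mTOR controls their translation, and growth signals and Myc raise their transcription. In the bone marrow, pro-B cells and large pre-B cells divide and grow, whereas small pre-B cells are resting cells that rearrange the light chain genes. Mta2 is a subunit of NuRD, a complex that deacetylates histones and remodels nucleosomes.

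Promoter sequences bear on genes that move together, and 60 of the 80 members had an entry in RefSeq (GRCm38.p6), each covering 300 bases. The letters CGGAAG, the core of sites bound by ETS factors such as GABP, occurred on either strand in 41 of these 60 promoters (68.3%), against 21.9% of all 16369 promoters with an entry. A run of 8 or more C or T that starts with C, within 50 bases of the start on the coding strand, occurred in 49 of 60 (81.7%), against 28.7% of all promoters. TATAAA on the coding strand occurred in 5 of 60 (8.33%), against 8.55%. These searches do not overlap each other except where a pyrimidine run takes in CTTCC letters, and a match is a description of letters, not of a bound site. Of the promoters of genes lower in small pre-B than in pro-B controls, 20 of 30 held CGGAAG and 25 of 30 held the pyrimidine run, and of those of genes not called 19 of 26 and 21 of 26 did. The stretches from 120 bases before to 30 bases after the RefSeq start are shown for 2 genes that were lower in small pre-B cells of both genotypes, Rps2 and Rpsa, and 2 that were higher in small pre-B cells of Mta2 KO mice, Rpl15 and Rpl39. Capitals mark whole matches to these searches. No pyrimidine run is marked in the stretches of Rps2 and Rpsa, whereas runs are marked in those of Rpl15 and Rpl39. The stretches end 30 bases after the start and the search went on to 50, so a run further on would not be seen. Since 25 of 30 promoters of lower genes held the run, the stretches shown do not stand for the lower genes in this respect. They do not show that the run goes with the direction of the stage difference.
Rps2 (chr17:24719943-24720092, plus strand): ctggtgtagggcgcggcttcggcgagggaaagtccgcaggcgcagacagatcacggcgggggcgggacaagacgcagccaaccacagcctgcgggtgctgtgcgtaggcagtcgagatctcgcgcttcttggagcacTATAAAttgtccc
Rpsa (chr9:120127646-120127795, plus strand): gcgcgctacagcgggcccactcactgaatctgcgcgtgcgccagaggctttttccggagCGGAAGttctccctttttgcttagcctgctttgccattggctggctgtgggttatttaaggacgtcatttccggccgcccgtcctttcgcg
Rpl15 (chr14:18270957-18271106, minus strand): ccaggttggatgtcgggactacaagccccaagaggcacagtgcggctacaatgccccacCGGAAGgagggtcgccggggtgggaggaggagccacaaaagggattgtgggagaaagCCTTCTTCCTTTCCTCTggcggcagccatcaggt
Rpl39 (chrX:37085193-37085342, minus strand): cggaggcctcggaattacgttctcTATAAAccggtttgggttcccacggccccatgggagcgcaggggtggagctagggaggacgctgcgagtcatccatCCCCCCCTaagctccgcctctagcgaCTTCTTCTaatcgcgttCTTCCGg
The Rpl15 run spans the annotated start. The RefSeq start of Rpl39 lies 38 bases from the start in the count files, and those of the other 3 coincide with it.

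The libraries held 17805507 to 52127004 counts, with more in pro-B than in small pre-B libraries. Mta2 had 199, 179 and 198 CPM (counts scaled to library size by TMM) in small pre-B Mta2 KO libraries, 438, 247 and 412 in small pre-B controls, 163 and 166 in pro-B Mta2 KO libraries and 436 and 375 in pro-B controls, so that it was lower in every KO library but not at 0 (log2 fold change -0.93, adjusted p = 0.042 in small pre-B, and -1.31, adjusted p = 0.212 in pro-B cells, edgeR). Small pre-B control 3 stood apart: it had 0.953% of its counts on histone genes, against at most 0.0399% in the other libraries, and its file header carries another number than its title. The sorted populations also differed in markers of other cells. Summed myeloid markers were 336, 249 and 181 CPM in small pre-B Mta2 KO, 228, 176 and 96.4 in small pre-B control, 8530 and 13500 in pro-B Mta2 KO and 5330 and 5520 in pro-B control libraries. Plasmacytoid dendritic markers summed to 9.6 to 31.5 CPM in small pre-B and 2080 to 2380 CPM in pro-B libraries, and T cell markers to 43.2 to 72.8 CPM in small pre-B Mta2 KO, 3.78 to 13.7 in small pre-B control, 443 and 474 in pro-B Mta2 KO and 313 and 382 in pro-B control libraries. Markers of B cell precursors summed to 7910 to 12200 CPM in small pre-B and 1140 to 1850 CPM in pro-B libraries. For Xist, small pre-B Mta2 KO 1 and 2 had 2520 and 2940 CPM, and it was at most 31.4 CPM in the other 8 libraries. Y-linked RNA (Ddx3y, Uty, Kdm5d and Eif2s3y summed) was 8.13, 0.079 and 571 CPM in small pre-B Mta2 KO 1, 2 and 3. It was 560, 498 and 674 CPM in small pre-B controls, 242 and 273 in pro-B Mta2 KO and 224 and 265 in pro-B control libraries. In small pre-B cells these sex-linked differences thus went partly with genotype, and their part in the comparisons was not tested.

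Ribosomal protein genes took a smaller share of the counts in small pre-B than in pro-B cells. The share was 2.57%, 2.44% and 2.86% in small pre-B Mta2 KO libraries, 2.41%, 2.20% and 2.18% in small pre-B controls, 3.13% and 3.21% in pro-B Mta2 KO libraries and 3.50% and 3.32% in pro-B controls. All 6 small pre-B libraries lay below all 4 pro-B libraries, each small pre-B KO library lay above each small pre-B control, and each pro-B KO library lay below each pro-B control. After TMM scaling the summed level was 27000 ± 2390 CPM in small pre-B Mta2 KO (SD, n = 3), 23680 ± 1190 in small pre-B control (n = 3), 30440 ± 1110 in pro-B Mta2 KO (n = 2) and 31920 ± 1090 CPM in pro-B control libraries (n = 2). On this scale the small pre-B KO and control libraries nearly met, with the lowest KO library at 24941 and the highest control at 24835 CPM, and the pro-B KO and control libraries overlapped. The summed 40S genes stood to the summed 60S genes at 0.691 to 0.701 in small pre-B KO libraries, 0.657 to 0.699 in small pre-B controls and 0.686 to 0.696 in pro-B libraries. The value of 0.657 came from small pre-B control 3.

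**Figure D1:**
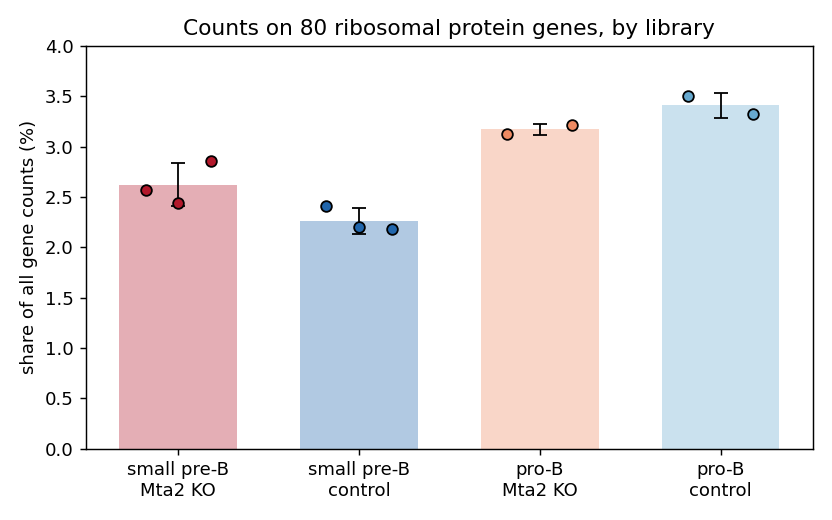
Share of all gene counts, in percent, on the 80 ribosomal protein genes. Points are libraries, bars the group means and error bars the SD (n = 3 for small pre-B groups, n = 2 for pro-B groups). The 6 small pre-B libraries lie between 2.18% and 2.86%, below the 4 pro-B libraries at 3.13% to 3.50%.

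RNA levels within the family covered a wide range, and they do not measure the copies of the proteins in a ribosome. The annotated exon lengths, by which levels per kilobase are divided, ran from 327 to 5134 bases. Of the 80 genes, 73 had a mean of at least 20 CPM over the 10 libraries, the lowest of them at 28.6 CPM, and the other 7 lay at or below 7.44 CPM. Per kilobase of exon, the 73 genes had mean levels of 55.1 to 1234 CPM with a median of 401. The highest were Rplp1, an acidic P stalk protein that helps recruit elongation factors (1234 CPM per kb), Rps9 (1120), Rpl4 (1093), Rps15 (1035) and Rps29 (1013). Over these 73 genes, level per kilobase had a Spearman rho of -0.11 with the share of 50-base windows also held by other annotated transcripts. This share ranged from 0% to 95.1% with a median of 35.9%. For most members the other genes holding such windows were mostly pseudogenes. This was not so for some, such as Rps16 (6 of 89 other genes) and Rpl23 (4 of 68). The headers record no option to count reads with several alignments, so the levels of members with many pseudogene copies are uncertain.

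Rpl26, Rpl30, Rpl34 and Rps27, which encode core proteins of the ribosome, were nearly absent from the counts. Rpl26 had 0 counts in all 10 libraries, where a floor of 3 counts corresponds to 0.0576 to 0.168 CPM. Rpl30 averaged 0.727 and Rpl34 0.872 CPM per kb, and Rps27 averaged 5.01 CPM per kb. These are the only 4 members with more than 50% of their exon bases also assigned to another gene in the annotation of the count files, namely 95.8% for Rpl26 (with Gm15772), 76% for Rpl30 (Gm12191), 67.2% for Rpl34 (Rpl34-ps1) and 60% for Rps27 (Gm9846). The headers record no option that would count reads over 2 genes, and by default the counting program discards them. Rpl5, next in order at 47.7% (with Fam69a), averaged 171 CPM per kb. The part of the overlap in these low counts was not tested.

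**Figure D2:**
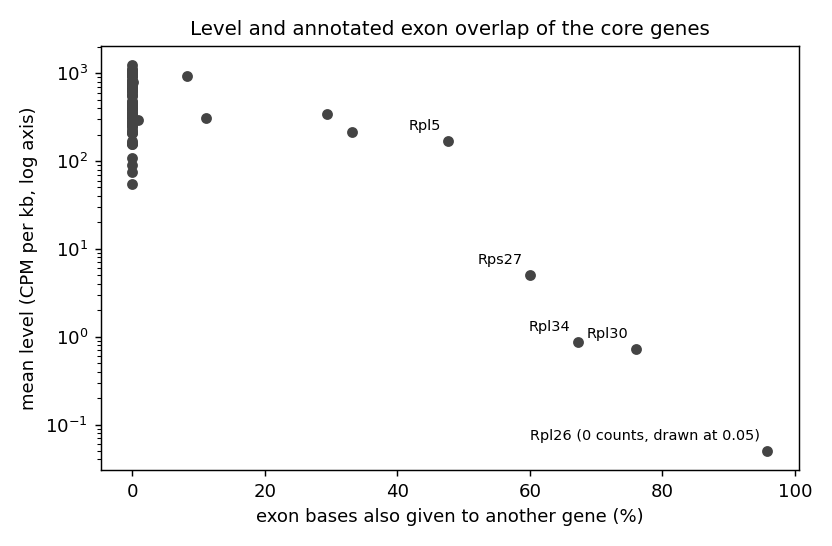
Mean level over 10 libraries in CPM per kb of exon (log axis) against the percent of exon bases that the count files' annotation also gives to another gene, for the 76 core genes (the 4 paralogues are left out). The 4 genes above 50% sit lowest, and Rpl26, with 0 counts, is drawn at 0.05.

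The paralogues are best known from muscle (Rpl3l), testis (Rpl10l and Rpl39l) and the p53 response (Rps27l). Rps27l had 27.0, 24.2 and 31.9 CPM in small pre-B Mta2 KO, 22, 23 and 34.1 in small pre-B control, 31.2 and 32.3 in pro-B Mta2 KO and 30.7 and 29.5 in pro-B control libraries, and was called in no comparison. Rpl3l had 14.5, 13.4 and 9.05 CPM in small pre-B Mta2 KO, 7.53, 10.6 and 4.46 in small pre-B control, 4.97 and 4.11 in pro-B Mta2 KO and 2.69 and 3.10 CPM in pro-B control libraries. Its small pre-B libraries lay above the pro-B libraries of the same genotype. Rpl39l had at most 16 counts and Rpl10l at most 8 counts in any library, and Rpl10l and Rpl26 were not tested. Of their parent genes, Rpl3 had 316 to 570.5 CPM, Rpl10, which completes the 60S subunit, 192 to 423 CPM and Rpl39 59.3 to 128 CPM over the 10 libraries, whereas Rps27 was among the 4 genes with nearly no counts.

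Small pre-B cells were compared with pro-B cells within each genotype to ask how the family differs between a dividing and a resting stage. In Mta2 KO cells 16 of the 78 tested members were lower and 6 were higher in small pre-B cells (edgeR quasi-likelihood test, adjusted p under 0.05), where 27.3% of all tested genes were called lower and 24.0% higher. The share of members called lower in KO cells (20.5%) was thus not above the background. In controls 43 members (55.1%) were lower and 2 higher, against 29.4% and 26.0% of all tested genes. The median log2 fold change of the members, small pre-B over pro-B, was -0.14 in KO cells and -0.38 in controls, where that of all tested genes was -0.02 in both. Of the 16 members lower in KO cells, 15 (93.8%) were among the 43 lower in controls (34.9% of these), and the other was Rpl35. Every small pre-B library lay below every pro-B library for 33 members and above for 15 in KO cells, against 39.4% and 36.5% of all tested genes, and for 57 and 6 in controls, against 38.9% and 34.1%. The 2 genes higher in controls, Rpl39 and Rpl3l, were also called in KO cells. The 2 stage comparisons do not show that the genotypes differ, which is tested further on.

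**Figure D3:**
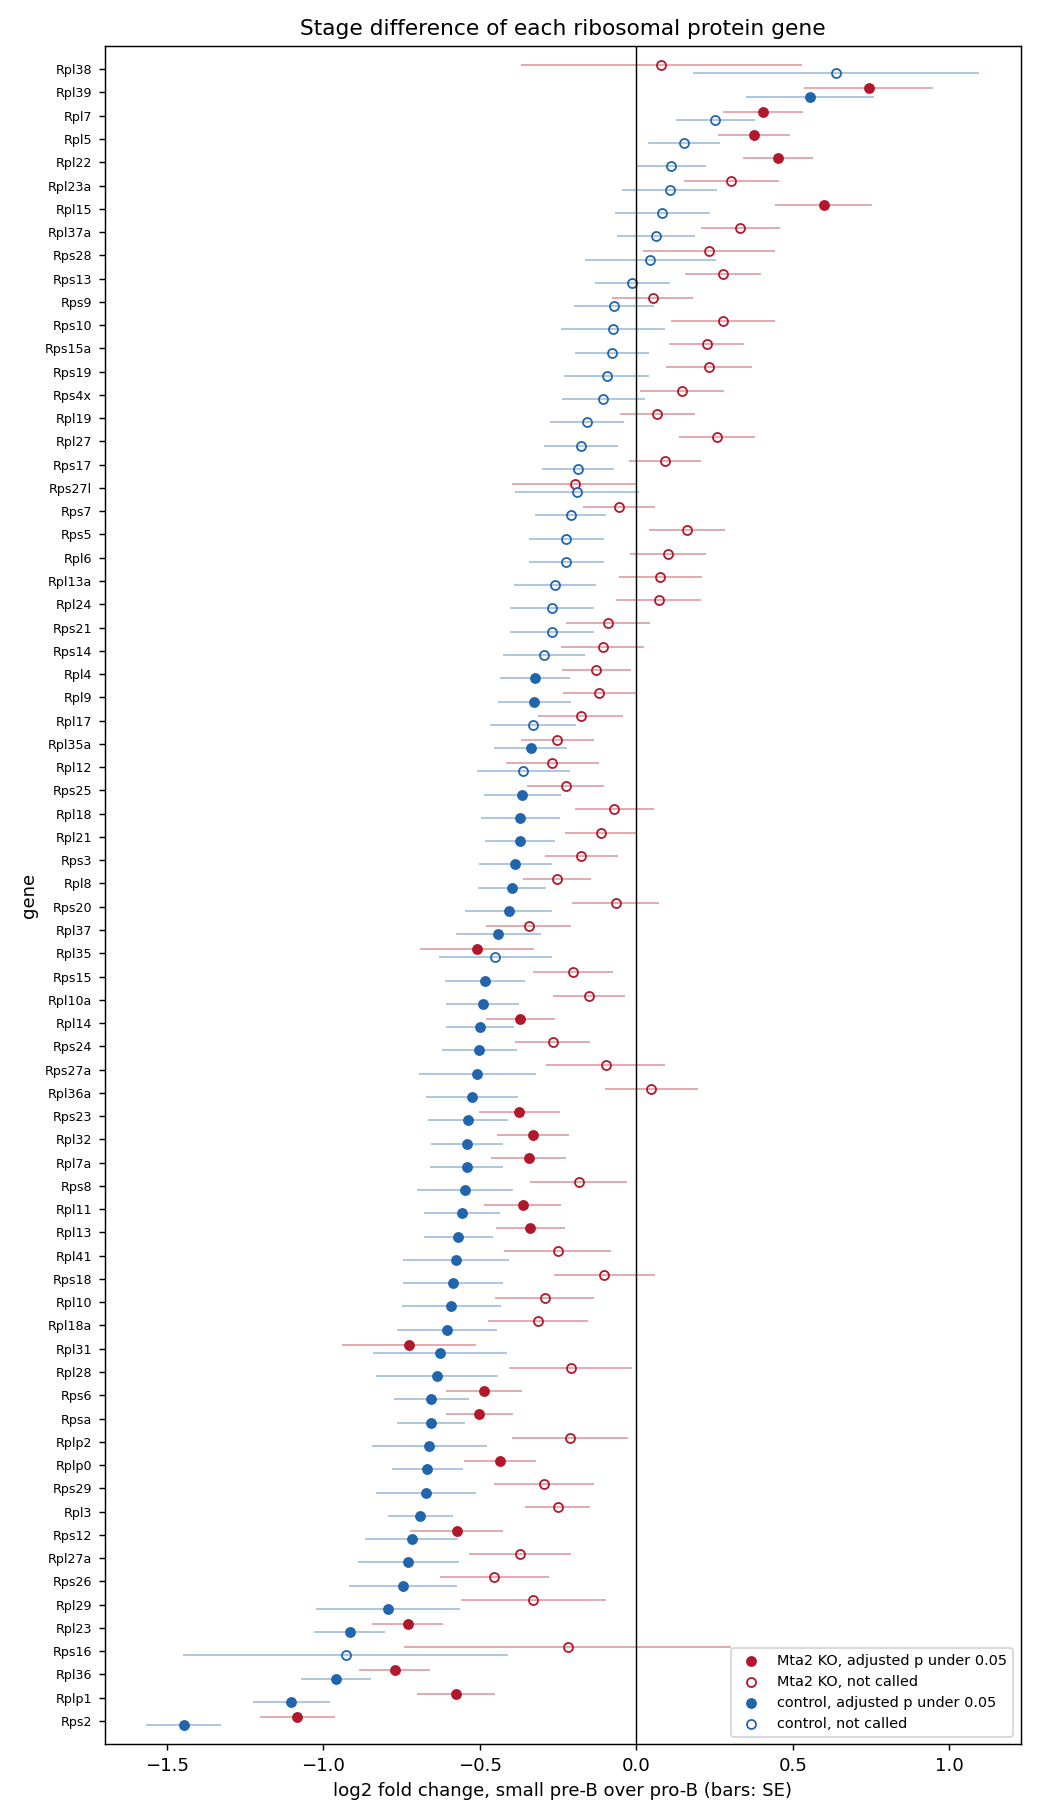
Fitted log2 fold change, small pre-B over pro-B, of members with a mean of at least 20 CPM in Mta2 KO (red) and control (blue) cells, with SE bars. Filled points passed adjusted p under 0.05. Rps2 is lowest in both genotypes, most points lie left of 0, and Rpl39 is called higher in both.

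Among 40S genes 5 of 30 (16.7%) were lower in KO cells and 16 of 30 (53.3%) in controls, and 0 were higher. The share was below that of all tested genes in KO cells (27.3%) and above it in controls (29.4%). Rps2, a protein near the mRNA entry channel of the small subunit (chr17:24720063-24721927, mm10), had 285, 277 and 269 CPM in small pre-B Mta2 KO, 214, 231 and 275 in small pre-B control, 583 and 591 in pro-B Mta2 KO and 679 and 626 CPM in pro-B control libraries. Every small pre-B library was well below every pro-B library. Its log2 fold change was -1.08 in KO cells (SE 0.12, adjusted p = 9.36e-05) and -1.45 in controls (SE 0.12, adjusted p = 2.21e-05, edgeR), the most negative of the 73 members in both. Rpsa, the laminin receptor homologue needed for 40S maturation, had 469, 456 and 456 CPM in small pre-B Mta2 KO, 429, 403 and 487 in small pre-B control, 636 and 668 in pro-B Mta2 KO and 712 and 673 CPM in pro-B control libraries. The stages did not overlap in either genotype, and the log2 fold change was -0.50 in KO cells (adjusted p = 0.00421, edgeR) and -0.66 in controls (adjusted p = 0.000902). Rps6, the S6 kinase substrate, fell by 0.49 on the log2 scale in KO cells (adjusted p = 0.00861, edgeR) and by 0.66 in controls (adjusted p = 0.00167). Rps19, whose human counterpart is mutated in Diamond-Blackfan anaemia, had 297, 253 and 351 CPM in small pre-B Mta2 KO, 255, 229 and 246 in small pre-B control, 261 and 251 in pro-B Mta2 KO and 267 and 254 CPM in pro-B control libraries. The stages overlapped in both genotypes for Rps19, and it was called in neither. Rps27a, a fusion of ubiquitin and a 40S protein, was not called in KO cells (log2 fold change -0.10, adjusted p = 0.693, edgeR) and was lower in controls (-0.51, adjusted p = 0.0445), a call that held in 10 of 22 alternative settings (adjusted p = 0.0157 to 0.569).

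Of the 3 P stalk genes 2 were lower in KO cells and 3 in controls, against 27.3% and 29.4% of all tested genes. A set of 3 genes is too small to set against these shares. Rplp1 (chr9:61913283-61914510) had 513, 450.2 and 506 CPM in small pre-B Mta2 KO, 436, 393 and 341 in small pre-B control, 740 and 721 in pro-B Mta2 KO and 864 and 809 CPM in pro-B control libraries. The stages were far apart in both genotypes, with a log2 fold change of -0.58 in KO cells (SE 0.13, adjusted p = 0.00428, edgeR) and -1.10 in controls (SE 0.12, adjusted p = 0.00011). Rplp0, the stalk base, had 828, 753 and 787 CPM in small pre-B Mta2 KO, 756, 629 and 721 in small pre-B control, 1025 and 1108 in pro-B Mta2 KO and 1130 and 1099 CPM in pro-B control libraries, and was called in both genotypes (adjusted p = 0.0115 in KO cells and 0.00112 in controls, edgeR). Rplp2 did not pass in KO cells (log2 fold change -0.21, adjusted p = 0.365, edgeR) and was lower in controls (-0.66, adjusted p = 0.0133).

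Among 42 tested 60S genes 9 (21.4%) were lower and 5 (11.9%) higher in KO cells, and 24 (57.1%) were lower and 1 (2.38%) higher in controls. In KO cells both shares were below those of all tested genes (27.3% lower and 24.0% higher), and in controls the share lower was above the 29.4% of all tested genes. Rpl36 (chr17:56613395-56614246) had 99.4, 109 and 102 CPM in small pre-B Mta2 KO, 98.7, 89.3 and 87.6 in small pre-B control, 159 and 194 in pro-B Mta2 KO and 185 and 172 CPM in pro-B control libraries. Rpl23, which in human cells binds the p53 regulator MDM2 (chr11:97777526-97782439), had 386, 377 and 432 CPM in small pre-B Mta2 KO, 381, 336 and 351 in small pre-B control, 617 and 705 in pro-B Mta2 KO and 690 and 652 CPM in pro-B control libraries. Both genes had every small pre-B library below every pro-B library. Rpl36 had log2 fold changes of -0.77 in KO cells and -0.96 in controls (adjusted p = 0.000501 and 0.00014, edgeR), and Rpl23 of -0.73 and -0.92 (adjusted p = 0.00067 in KO cells and 0.000176 in controls). Rpl3, close to the peptidyl transferase centre, missed the threshold in KO cells (-0.25, adjusted p = 0.0686, edgeR) and was lower in controls (-0.69, SE 0.10, adjusted p = 0.000517). Rpl11, which with Rpl5 and 5S RNA restrains MDM2, was lower in both genotypes (-0.36, adjusted p = 0.034 in KO cells, and -0.56, adjusted p = 0.00433 in controls, edgeR), and its call in KO cells held in 12 of 22 alternative settings.

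A smaller set of 60S genes did not follow this direction. Rpl39, a short protein of the exit tunnel (chrX:37082520-37085184), had 97.8, 87.4 and 115 CPM in small pre-B Mta2 KO, 90.2, 76.9 and 128 in small pre-B control, 60.5 and 59.3 in pro-B Mta2 KO and 65.2 and 68.8 CPM in pro-B control libraries. Every small pre-B library exceeded every pro-B library, and the log2 fold change was 0.74 in KO cells (SE 0.21, adjusted p = 0.0144, edgeR) and 0.56 in controls (SE 0.21, adjusted p = 0.0436). The call in controls held in 12 of 22 alternative settings. Rpl22, whose loss in mice impairs the development of T cells, had 258, 242 and 296 CPM in small pre-B Mta2 KO, 221, 201 and 205 in small pre-B control, 187 and 201 in pro-B Mta2 KO and 193 and 194 CPM in pro-B control libraries. It passed in KO cells (0.45, SE 0.11, adjusted p = 0.00832, edgeR) and not in controls (0.11, adjusted p = 0.412). Rpl15, Rpl5 and Rpl7 were also called higher in KO cells and not in controls, with log2 fold changes of 0.60, 0.38 and 0.41 there and 0.08, 0.15 and 0.25 in controls. Rpl5 and Rpl7 had every small pre-B library above every pro-B library of the same genotype. Rpl3l had log2 fold changes of 1.44 in KO cells (adjusted p = 0.00946, edgeR) and 1.37 in controls (adjusted p = 0.0111). Rpl38, a protein that in mice affects translation of homeobox messages, was called in neither genotype, and its direction in controls turned on small pre-B control 3.

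The calls depended on the scale. With libraries scaled to the ribosomal protein genes themselves, which centres the members by construction, the median of all genes was 0.36 on the log2 scale (small pre-B over pro-B controls). Then 8 members were lower and 13 higher in KO cells, against 21.6% and 28.9% of all tested genes, and 4 were lower and 13 higher in controls, against 19.6% and 41.0%. The 4 lower ones in controls, Rps2 (-1.05), Rplp1 (-0.71), Rpl36 (-0.57) and Rpl23 (-0.53), were also the lower ones common to both genotypes, and 11 of the 13 higher were shared. Rpl39 (0.94), Rpl7 (0.64), Rpl5 (0.54), Rpl22 (0.50), Rpl23a (0.49), Rpl15 (0.47) and Rpl37a (0.45) were among the higher genes in controls. Of the 43 genes lower in controls, Rps2, Rplp1, Rpl36 and Rpl23 were called under each of the 22 alternatives run. With total counts alone as the scale, the median of all genes in controls was -0.18, that of the members was -0.54 and 56 members were called lower, against 34.7% of all tested genes. Without pro-B Mta2 KO 2, 5 members were lower in KO cells in place of 16, where the share of all tested genes was 18.3% in place of 27.3%. Without pro-B control 1 or 2, 20 or 24 members were lower in controls in place of 43, where the share of all tested genes was 21.2% or 20.9% in place of 29.4%. In bulk libraries fewer cells of a type and less RNA per cell cannot be told apart. The part of the myeloid, plasmacytoid dendritic and T cell RNA in pro-B libraries was not tested.

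Other genes of ribosome production were set beside the family, to be read against the 27.3% of all tested genes lower and 24.0% higher in KO cells and the 29.4% lower and 26.0% higher in controls. Of 39 ribosome biogenesis genes, 16 (41.0%) were lower and 0 higher in KO cells, and 19 (48.7%) lower and 2 (5.13%) higher in controls, with medians of -0.22 and -0.39. Examples in controls are Gnl3, nucleostemin (log2 fold change -1.36, SE 0.12, adjusted p = 3.4e-05, edgeR), Nolc1 (-1.08), Nhp2 (-1.0) and Nop58 (-0.96), which act in the nucleolus. Of 18 translation factors and other genes with 5' TOP messages, 3 (16.7%) were lower and 3 (16.7%) higher in KO cells. In controls 4 (22.2%) were lower and 2 (11.1%) higher, including Npm1 (-0.89) and Eef1g (-0.63) lower and Eif3e (0.63) higher. All of these shares were below the shares of all genes. Of 76 mitochondrial ribosomal protein genes, 10 (13.2%) were lower and 10 (13.2%) higher in KO cells and 19 (25%) lower and 6 (7.89%) higher in controls, also below those shares, with medians of 0.00 and -0.13. Of 25 tested initiation factors, 4 (16.0%) were lower and 5 (20%) higher in KO cells and 4 (16.0%) lower and 3 (12%) higher in controls. Of 16 genes of mTOR and translation control, 3 (18.8%) were lower and 7 (43.8%) higher in KO cells, and 2 (12.5%) lower and 7 (43.8%) higher in controls. Among the 7 was Mtor (1.61 in controls), and Larp1, which binds 5' TOP messages, was lower (-1.01 in controls). Myc, the transcription factor that drives ribosome production, had 17.3, 28.8 and 12 CPM in small pre-B Mta2 KO, 6.41, 12 and 3.15 in small pre-B control, 93.5 and 101 in pro-B Mta2 KO and 73.4 and 92.5 CPM in pro-B control libraries, a log2 fold change of -2.32 in KO cells (adjusted p = 0.0032, edgeR) and -3.54 in controls (adjusted p = 0.000372). In the Myc network list of 9 genes, 4 were lower and 3 higher in KO cells, and 4 lower and 2 higher in controls. Of 7 snoRNA host genes, 0 were called in KO cells and 1, Snhg3, was lower in controls (-0.98).

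Mta2 KO was compared with control within each cell type to ask whether loss of the NuRD subunit moved the family. In small pre-B cells edgeR called 0 of 78 members higher and 0 lower, against 1.89% and 1.14% of all tested genes. At an unadjusted p under 0.05, 23 members were higher and 0 lower in small pre-B KO cells, against 13.0% and 11.7% of all tested genes. In pro-B cells 0 members were called higher and 0 lower by edgeR, against 0.0353% and 0.0% of all tested genes, and 0 had an unadjusted p under 0.05. The members' median log2 fold change, KO over control, was 0.18 in small pre-B cells (all tested genes 0.01), with 73 of 78 fitted above 0, and -0.05 in pro-B cells (all tested genes -0.01), with 60 of 78 fitted below 0. Every KO library was above every control library for 23 members in small pre-B cells and below for 0, against 13.3% and 11.7% of all tested genes. In pro-B cells these counts were 4 and 33, against 27.4% and 28.1%.

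**Figure D4:**
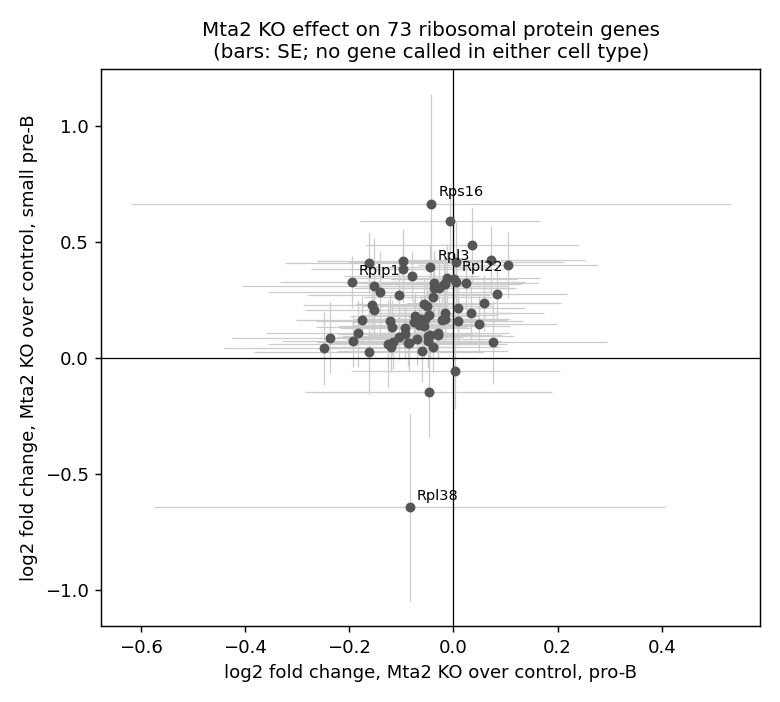
Fitted log2 fold change, Mta2 KO over control, of the 73 members with a mean of at least 20 CPM in small pre-B cells (vertical axis) against pro-B cells (horizontal axis), with SE bars. In small pre-B cells 70 of the 73 lie above 0 and no gene is called in either cell type, and Rps16 and Rpl38 have the widest bars.

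Rpl3 and Rpl22 were among the members with the smallest p in small pre-B cells. Rpl3 stood at 461, 445 and 462 CPM in the KO libraries and at 358, 367 and 316 CPM in the controls, without overlap (log2 fold change 0.39, SE 0.09, adjusted p = 0.0553, edgeR). Rpl22 differed by 0.34 (adjusted p = 0.0869, edgeR), also without overlap. Neither passed. In pro-B cells Rpl3 had 519.7 and 565 CPM in KO and 570.5 and 548 CPM in control libraries, which overlapped. The lowest p among members lower in small pre-B KO cells belonged to Rps27, Rpl38 and Rpl31, with log2 fold changes of -0.98, -0.64 and -0.14 (adjusted p = 0.203, 0.349 and 0.675, edgeR). Without small pre-B control 3 these were -0.24, 0.15 and 0.10, so that Rpl38 and Rpl31 changed sign. In pro-B cells the smallest unadjusted p was 0.0981 for Rpl34, which has under 1 CPM in every library. Next were Rpl3l (0.127) and Rpl39l (0.195) among the higher genes and Rpl37a (0.19), Rplp1 (0.191) and Rpl10a (0.2) among the lower ones.

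Other methods called some members for the KO effect in small pre-B cells, at shares near those of all tested genes. DESeq2's Wald test called 5 of 78 members higher (6.41%, against 7.54% of all tested genes), among them Rpl3, Rpl22, Rpl27 and Rplp1 (adjusted p = 0.000501, 0.0268, 0.0472 and 0.0497), and limma-voom called 2 (2.56%, against 2.23%), among them Rpl3 (adjusted p = 0.0467). Scaling to the members themselves moved their median to -0.01 and that of all genes to -0.18. Without small pre-B Mta2 KO 3, the KO library with the highest share, the members' median was 0.11 in place of 0.18. With only the libraries of at least 10 CPM of Y-linked RNA, the median was 0.34. That choice leaves small pre-B Mta2 KO 3 as the only KO library of small pre-B cells. Kit, 1 of 3 listed pro-B cell markers, was higher in small pre-B KO cells (2.54, adjusted p = 0.0317, edgeR). The other listed pro-B cell markers were not called, and the log2 fold changes of the 3 had a median of 1.22 and a minimum of -0.25. Of 6 T cell markers, 4 were called higher in small pre-B KO cells. The part of other cells in the members' values was not tested. The difference of the KO effects between the cell types was called for 0 of 78 members (0.0% of all tested genes in either direction, edgeR). At an unadjusted p under 0.05, 7 members had a larger KO effect in small pre-B cells and 0 a smaller one, against 3.02% and 3.38% of all tested genes. Rpl3 (0.44, adjusted p = 0.689), Rplp1 (0.52, adjusted p = 0.689) and Rpl36a (0.57, adjusted p = 0.705) had the smallest p. The KO comparison and the stage comparison in controls share the small pre-B control libraries, and the stage comparison in KO cells shares the KO libraries.

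Small pre-B control 3 differed from the other 2 controls in the relative levels of members. Across the 73 members the SD of the log2 ratio between 2 libraries of a group was 0.471 and 0.485 in the pairs with control 3, and 0.05 to 0.133 in every other pair. Rps16 was at 228, 218 and 239 CPM in KO and at 201, 194 and 37.6 CPM in control libraries of small pre-B cells, and control 3 was 2.39 lower on the log2 scale than the mean of controls 1 and 2. Rpl38 was at 62.5, 57.1 and 77.8 CPM in KO and at 63, 55.4 and 189 CPM in control libraries of small pre-B cells, 1.68 higher on the log2 scale in control 3. Rpl29 averaged 104 ± 4.52 CPM in small pre-B KO and 84.2 ± 27.1 CPM in small pre-B control libraries (SD, n = 3 each), and control 3, at 52.9 CPM, was the lowest. Over the pro-B controls, Rps16 stood at -0.45, -0.50 and -2.86 and Rpl29 at -0.56, -0.53 and -1.46 on the log2 scale in small pre-B controls 1, 2 and 3, so that all 3 lay below. Without control 3 the stage difference in controls was -0.47 for Rps16 (adjusted p = 0.00147, against 0.153 with it, edgeR) and -0.54 for Rpl29 (adjusted p = 0.000508, against 0.0162), so that Rps16 was called lower only without that library. Rpl38 changed sign, with a stage difference in controls of -0.15 without control 3 and 0.64 with it, and a KO effect in small pre-B cells of 0.15 without and -0.64 with it. The KO effect of Rps16 in small pre-B cells was 0.21 without control 3 and 0.67 with it. Without control 3, 26 members were lower in small pre-B than pro-B cells of KO mice in place of 16, where the share of all tested genes was 32.4% in place of 27.3%, and 49 members were lower in controls in place of 43, where it was 30.7% in place of 29.4%. For the KO effect in small pre-B cells 1 of 77 members passed (1.30%, against 1.27% of all tested genes).

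**Figure D5:**
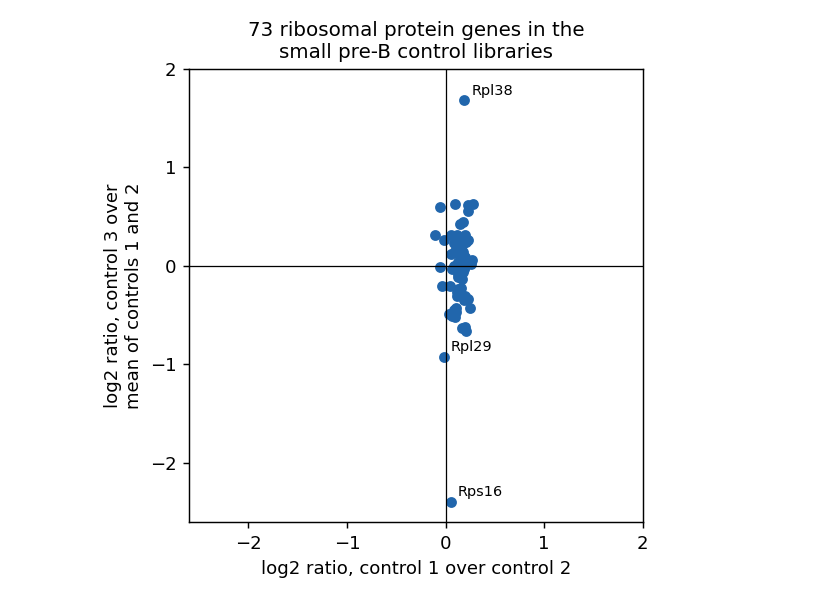
Log2 ratio of small pre-B control 3 over the mean of controls 1 and 2 (vertical axis) against control 1 over control 2 (horizontal axis) for the 73 members with a mean of at least 20 CPM. Controls 1 and 2 agree within 0.28 for every gene, while control 3 departs by up to 2.39 (Rps16) and 1.68 (Rpl38).

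Likeness to the family was described over the 10 libraries, which differ in stage and depth. The members least like the family mean were Rpl39 (Pearson r = -0.53), Rpl7 (-0.44), Rpl38 (-0.29), Rpl5 (-0.25) and Rpl37a (-0.12). For these genes in this order, the log2 ratio of small pre-B control 3 over the mean of controls 1 and 2 was 0.62, 0.24, 1.68, -0.13 and 0.04. The values of r without control 3 were not computed. Outside the family, the tested genes whose log2 CPM followed it most closely were Rpl36al (r = 0.97), a paralogue of Rpl36a outside the symbol rule, Aamp (0.97), Nop10 (0.97), a protein of H/ACA small nucleolar particles, Tysnd1 (0.96) and Ndufa8 (0.96). Rpl36al had 33.6, 29.5 and 40.5 CPM in small pre-B Mta2 KO, 31.4, 26.5 and 27.2 in small pre-B control, 40.5 and 40.3 in pro-B Mta2 KO and 42.4 and 37.3 CPM in pro-B control libraries, lower in small pre-B than in pro-B controls (log2 fold change -0.49, adjusted p = 0.0208, edgeR). Across the 73 members the stage difference in controls had a Spearman rho of -0.28 with the level per kilobase, 0.03 with exon length and -0.24 with the share of 50-base windows held by other transcripts.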

How the data were processed

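Each library has a deposited table of raw read counts by gene symbol, not normalized. Per the file headers, the authors ran featureCounts 1.4.3-p1 on exons of an mm10 gene annotation without a strand, multi-mapping or overlap option, so reads of a gene and an antisense partner cannot be told apart. CASAVA 1.82, STAR and mm9 are named per the submitters' processing notes, whereas the coordinates in the files are mm10. After filterByExpr (counts of at least 10, totals of at least 15) 14161 genes were tested. A model with 4 group means took in all 10 libraries in edgeR 4.0.16 (R 4.3.3) with TMM scaling and robust quasi-likelihood tests, with Benjamini-Hochberg adjustment across the tested genes (threshold 0.05). The prior count of fitted log2 fold changes was 0.125. Levels are given as CPM after TMM scaling. A floor of 3 counts corresponds to 0.0576 to 0.168 CPM, and floors cover counting error only. The script was tested on simulated counts. Shared 50-base windows were searched in the GENCODE M21 transcripts. The members, lists and tests were chosen with earlier results of these data known. Genes named are the 6 with the smallest p per direction among those called (3 where fewer pass), the 5 highest per kilobase, the paralogues with their parents, a set of 11 fixed members, up to 4 called genes per other list, and the 5 genes most like the family. Genes in the control 3 and exon overlap descriptions were chosen after their values were seen. Alternatives were other scalings, DESeq2 1.42.0, limma-voom (3.58.1), other count filters, only the groups compared, the title number as a block, each library left out, and, added after seeing the data, the libraries with Y-linked RNA alone and members of at least 20 CPM alone. A library left alone in its group was taken to vary as the others do. A few genes are not reported here, in the text or in the plot of stage differences.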

Additional observations from a re-analysis of the deposited data

How the results depend on the processing

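For the KO effect in small pre-B cells, the main 0 members higher became 5 with the DESeq2 Wald test, 2 with limma-voom and 1 with a filter of 1 CPM, and 0 to 2 when a library was left out (2 without control 2 and 1 without control 3). Of all tested genes, 7.54% were called higher with DESeq2, 2.23% with limma-voom, 2.45% with that filter, 6.53% without control 2 and 1.27% without control 3, against 1.89%, so the members' counts were near or below these shares. For the KO effect in pro-B cells, and for the difference of the effects, 0 members were called by edgeR and under every alternative run. Between small pre-B and pro-B cells of KO mice the main 16 lower became 8 when scaled to the ribosomal protein genes themselves and 4 with the Y-linked libraries alone, and 5 to 26 when a library was left out (5 without pro-B KO 2, 8 without small pre-B KO 2, 10 without pro-B KO 1 or small pre-B KO 1, 26 without small pre-B control 3). The main 6 higher there became 13 when scaled to the family, and 1 to 9 when a library was left out (1 without either pro-B KO library). In controls the main 43 lower became 4 when scaled to the family, and 20 to 49 when a library was left out (20 without pro-B control 1, 24 without pro-B control 2). The main 2 higher there became 13 when scaled to the family, 1 with DESeq2 size factors, total counts alone, only the groups compared, the Y-linked libraries alone and members of at least 20 CPM alone, and 0 to 4 when a library was left out. Shares of all tested genes moved as well. Scaled to the family, 21.6% were lower and 28.9% higher in KO cells, and 19.6% and 41.0% in controls. Without small pre-B control 3, 32.4% were lower in KO cells and 30.7% in controls, against 27.3% and 29.4% with all libraries. Without pro-B KO 2, 18.3% were lower in KO cells, and without pro-B control 1 or 2, 21.2% or 20.9% were lower in controls. The other stage counts in this paragraph stand here without such a share, so they cannot show whether a change is particular to the family. The causes were not tested, apart from the family scaling, which centres the members by construction. The title numbers were tried as a replicate block, and the main model left them out because the labels do not say that they pair samples. As deviations from group means, same-numbered small pre-B libraries correlated at 0.102, 0.155 and 0.045, and differently numbered ones at -0.111 to 0.002. In pro-B cells these values were 0.015 and -0.015, which groups of 2 libraries force to be equal and opposite. Centring ties such values to each other, so they do not decide whether the numbers pair samples. Small pre-B control 3 has another number in its file header than in its title, so its place in the block is uncertain. The block gave 17 lower and 6 higher in KO cells, 38 lower and 2 higher in controls and 0 for the KO effects. In small pre-B cells each library correlated best with its own number, a hint from the data and not from the design. Groups of 2 and 3 libraries limit all counts of calls.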

Other observations

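Rps2 and Rpl3l lie near each other on chromosome 17 on the same strand, with 5901 bases and 1 other gene, Ndufb10, between them (mm10). Rps2 was the member with the most negative stage difference and Rpl3l one of the 2 members higher in small pre-B than pro-B controls. Rps2 averaged 277 ± 8.01 CPM in small pre-B Mta2 KO (SD, n = 3), 239.8 ± 31.7 in small pre-B control (n = 3), 587 ± 5.45 in pro-B Mta2 KO (n = 2) and 653 ± 37.5 CPM in pro-B control libraries (n = 2). Rpl3l averaged 12.3 ± 2.89 CPM in small pre-B Mta2 KO, 7.53 ± 3.07 in small pre-B control, 4.54 ± 0.61 in pro-B Mta2 KO and 2.89 ± 0.28 CPM in pro-B control libraries. The pair was picked after its values were seen.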
